A study of Mus musculus with 8 samples.

Results

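Binding of the glucocorticoid receptor (GR) to chromatin was compared between livers of calorically restricted mice and livers of control mice. It was mapped by chromatin immunoprecipitation followed by sequencing (ChIP-seq), and 4 of the 8 samples in the series belong to this comparison. All mice were adult male C57BL/6J animals on regular chow, with livers taken at lights-off, when food was given to both groups. Control mice (ctrl., 2 libraries) had food during the night, and caloric restriction mice (cal. res., 2 libraries) received a gradually reduced ration. Each library was a separate liver sample per the study's methods, and 2 libraries per group leave the spread within a group poorly known. Whole livers were snap frozen before fixation with formaldehyde, so the cell type that gave each peak was not recorded.

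The members were every GR peak region of the 4 lists, chosen by library title alone, without use of any measured value. The ctrl. lists held 36234 and 12458 regions and the cal. res. lists 22707 and 18747, out of 158755 GR regions in the 6 GR lists of the series. Regions that overlapped by at least 1 bp were merged into 39787 sites. A site was called cal. res.-held when both cal. res. lists and no ctrl. list had a peak there, ctrl.-held in the reverse case, and shared when all 4 lists had one. Within a list each region was ranked by its fold enrichment, the ratio of reads at the summit to the local background, and the rank was written as a percentile, 100 being the highest. The fold enrichment itself is scaled within a library, so that sites were ranked between lists by percentiles. Fold enrichments entered limma after normalisation between lists, and are otherwise given as descriptions. Because longer lists hold more sites, each comparison was repeated with the 12458 regions of lowest p-value from each list, called equal list length below.

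GR is a nuclear receptor that waits in the cytoplasm until it binds glucocorticoid hormones, the adrenal steroids that rise before feeding and under stress. The hormone-bound receptor enters the nucleus, where pairs of receptors sit on inverted repeats of a short half-site, the glucocorticoid response element (GRE). It also meets chromatin beside other factors without a full element, and in hepatocytes it is best known for raising gluconeogenesis, amino acid breakdown and the clock gene Per1. FOXO1, a forkhead factor that insulin keeps out of the nucleus, shares many liver targets with it.

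Markers fit liver tissue as far as peaks can show it, since a peak near a gene is not its expression. Of 9 hepatocyte markers matched, 8 had a shared site within 10 kb of the gene start, against 19.9% of all protein-coding genes. None of the 5 Kupffer cell, 5 endothelial, 5 stellate cell, 5 cholangiocyte or 5 lymphocyte markers had a shared, cal. res.-held or ctrl.-held site in that window. Within 50 kb, where 38.8% of all genes had a shared site, so did 9 of the 9 hepatocyte markers, 3 endothelial, 3 lymphocyte, 1 stellate cell, 1 cholangiocyte and 0 Kupffer cell markers. The part of other cell types in the results was not tested.

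As examples of sequence, 200 bp around the summit are printed for 7 sites picked by rank (mm10, plus strand, sequence from RefSeq GRCm38). Windows picked in this way do not show how often a class holds a motif. Capitals mark matches to the 12 motifs searched on both strands. These were the GR half-site AGAACA, the forkhead motif TGTTTAC (FOX), the C/EBP motif TTGCNNAA, the STAT motif TTCNNNGAA, the NF-Y box CCAAT, the SP/KLF box GGGCGG, the ETS motif CCGGAAG, the E-box CACGTG, the HNF6 motif ATCGAT, the HNF4 half-element CAAAGTCCA, the nuclear receptor pair DR1 and the full GRE. A full GRE was a pair of half-sites in inverted repeat with 3 bases between, with at most 2 of its 12 letters different, so that it can overlap the half-site motif. Of the 39785 windows with sequence, 18.2% held a half-site, 3.3% a full GRE, 5.6% FOX, 15.7% C/EBP, 7.3% STAT, 26% NF-Y, 17.3% SP/KLF and 3.7% ETS, 5.2% the E-box, 1.8% HNF6, 1.8% the HNF4 half-element and 0.1% DR1. A match describes letters and is not evidence of binding by the factor. The first group has 3 cal. res.-held sites, each with a full GRE, nearest to Cyp2b10 (chr7:25884336-25884535, intergenic), Rab7 (chr6:88062492-88062691, intergenic) and Klhl2 (chr8:64880958-64881157, intergenic).

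Cyp2b10: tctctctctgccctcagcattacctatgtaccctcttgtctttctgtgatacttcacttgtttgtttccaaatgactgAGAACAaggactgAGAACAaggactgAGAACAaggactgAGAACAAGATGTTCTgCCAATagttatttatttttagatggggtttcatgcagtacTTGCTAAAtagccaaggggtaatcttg
Rab7: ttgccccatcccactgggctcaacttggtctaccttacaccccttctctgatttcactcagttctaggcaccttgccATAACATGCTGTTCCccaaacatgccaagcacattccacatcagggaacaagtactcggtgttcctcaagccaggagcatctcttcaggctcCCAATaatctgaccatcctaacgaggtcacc
Klhl2: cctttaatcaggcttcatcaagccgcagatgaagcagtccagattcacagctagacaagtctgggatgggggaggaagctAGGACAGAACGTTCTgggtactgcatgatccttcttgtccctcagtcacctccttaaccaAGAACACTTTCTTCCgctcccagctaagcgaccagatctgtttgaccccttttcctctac

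The Cyp2b10 window repeats the half-site 4 times on the printed strand, at positions 79, 92, 105 and 118 from its 5′ end, each 13 bases after the last. Another half-site, on the other strand at position 127, forms a full GRE with the one at 118. The Rab7 window holds a full GRE at position 78 with no exact half-site, and the Klhl2 window holds full GREs at positions 81 and 141. The second group has 2 ctrl.-held sites, neither with a full GRE, an element that most windows lack. They lie nearest to Prkcz (chr4:155316977-155317176, in its intron) and Serpina1e (chr12:103945225-103945424, in the gene).

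Prkcz: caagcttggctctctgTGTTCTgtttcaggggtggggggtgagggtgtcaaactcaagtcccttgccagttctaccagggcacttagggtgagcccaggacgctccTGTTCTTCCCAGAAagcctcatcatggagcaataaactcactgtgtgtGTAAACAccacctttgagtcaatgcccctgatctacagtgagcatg
Serpina1e: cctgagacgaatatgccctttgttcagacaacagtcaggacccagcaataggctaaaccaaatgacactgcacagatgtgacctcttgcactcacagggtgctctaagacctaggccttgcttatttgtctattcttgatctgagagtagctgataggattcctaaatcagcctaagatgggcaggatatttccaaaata

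The Prkcz window has half-sites at positions 17 and 107, the second overlapped by a STAT match at 112, and a FOX match at 155. The Serpina1e window holds none of the 12 motifs. The last group has the shared site with the largest gap in favour of cal. res., in an intron of Enpp2 (chr15:54869147-54869346). Beside it stands a CpG-rich shared site that ranked higher in ctrl., in a coding exon of Zfp771 with Dctpp1 as nearest start (chr7:127254234-127254433).

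Enpp2: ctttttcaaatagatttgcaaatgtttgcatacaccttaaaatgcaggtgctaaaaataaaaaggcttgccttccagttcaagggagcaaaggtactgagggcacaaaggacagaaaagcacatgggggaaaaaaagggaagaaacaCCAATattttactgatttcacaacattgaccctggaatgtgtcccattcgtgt
Dctpp1: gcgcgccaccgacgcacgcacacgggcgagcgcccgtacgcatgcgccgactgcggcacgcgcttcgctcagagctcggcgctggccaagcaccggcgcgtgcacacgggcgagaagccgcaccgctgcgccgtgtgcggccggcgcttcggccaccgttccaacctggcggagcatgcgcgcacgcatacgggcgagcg

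The Enpp2 window is 39.5% GC with 1 CpG, and the window near Dctpp1 is 75.5% GC with 39 CpG. Neither of them holds a half-site or a full GRE.

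The lists differed in length within groups as much as between them. Median region width was 505 and 379 bp in the ctrl. lists and 368 and 408 bp in the cal. res. lists, and median fold enrichment was 5.62 and 4.49 against 5.73 and 5.01. Read numbers were not analysed here, so depth is unknown and the absence of a peak means only that none was called. Library names put ctrl. replicate 1 in another name series than the other 3 libraries, which the labels do not call a batch. That series cannot be told apart from the length of its list, and results are given without each ctrl. library where they rest on it.

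Most sites were not specific to a group. All 4 lists held a peak at 8613 sites, and ctrl. replicate 1 alone held 13841. Both cal. res. lists together with ctrl. replicate 1 held 5656 sites that ctrl. replicate 2, the shortest list, lacked. There were 469 cal. res.-held sites, 1.18% of all sites, and 935 ctrl.-held sites, 2.35%. Without ctrl. replicate 1 the cal. res.-held sites numbered 6358, and without ctrl. replicate 2 they numbered 534. The ctrl.-held sites numbered 1480 without ctrl. replicate 1 and 14802 without ctrl. replicate 2, so both counts followed the lists that were set against each other. In rank, the class sites were below the middle of the lists, with median percentiles of 37.2 and 36.0 for the cal. res.-held and 42.5 and 28.5 for the ctrl.-held sites. Shared sites had median percentiles of 85.0 and 60.2 in ctrl. and 75.2 and 70.1 in cal. res. The 5656 sites that ctrl. replicate 2 alone lacked had medians of 66.2 in ctrl. replicate 1 and 52.4 and 47.3 in cal. res., and 20.6% of them were promoters.

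**Figure D1:**
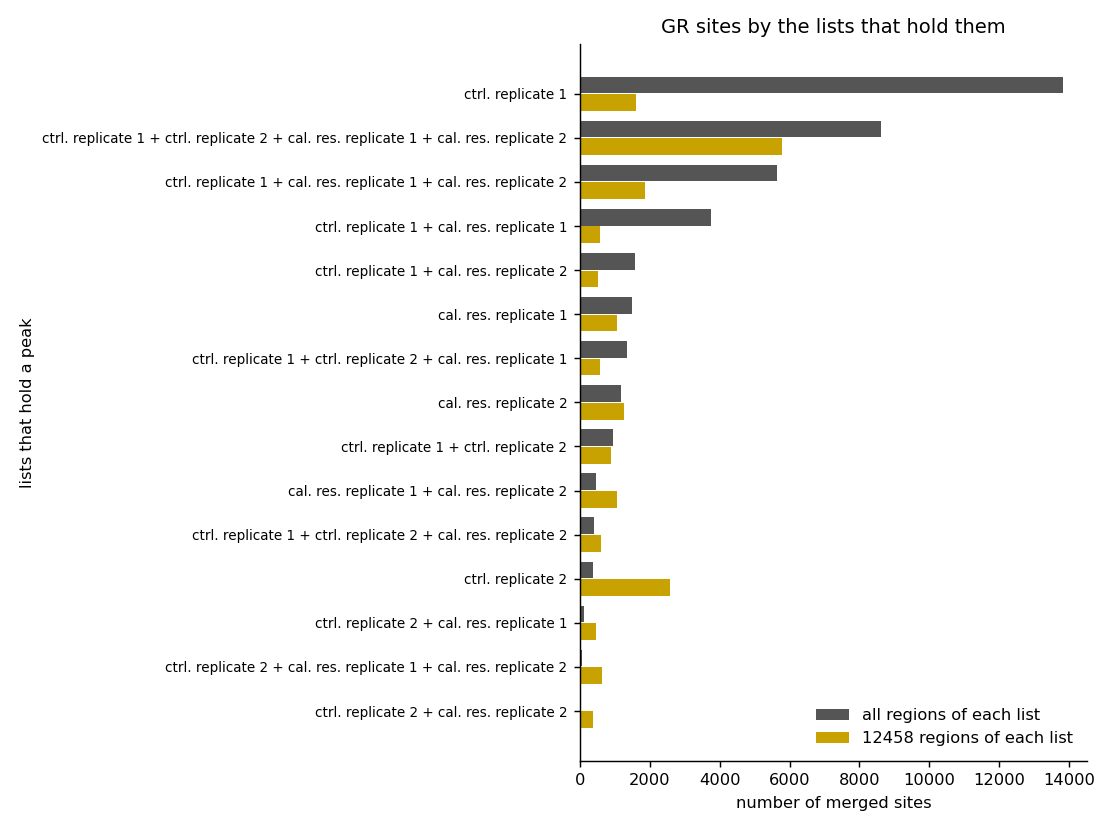
Number of merged GR sites (horizontal axis) for each combination of lists that held a peak (vertical axis), with all regions of each list (grey bars) and with the 12458 regions of lowest p-value (yellow bars). The longest grey bar is ctrl. replicate 1 alone with 13841 sites, and the longest yellow bar is the sites held by all 4 lists, 5792.

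With lists of equal length, 5792 of 19814 sites were shared, 1056 (5.33%) were cal. res.-held and 900 (4.54%) ctrl.-held. Equal length thus left the classes close to each other in number. Their members changed with the length, since 141 cal. res.-held sites were in the class on both footings, 30.1% of the 469 and 13.4% of the 1056. For the ctrl.-held sites the overlap was 148, 15.8% of the 935 and 16.4% of the 900. Of the 1056, 904 lay at sites where ctrl. replicate 1 also had a peak, further down its list. Of the 900, 382 (42.4%) lay at sites shared by all 4 lists when whole lists were used. With q of at most 1e-05 demanded of both holding lists, 150 cal. res.-held and 107 ctrl.-held sites remained.

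The classes differed in where they lay. Of the 469 cal. res.-held sites, 13.9% (10.9–17.3) were at promoters, against 66.2% (63.1–69.2) of the 935 ctrl.-held sites. Here a promoter site has its centre within 1 kb of any annotated transcription start, and intervals are exact (Clopper-Pearson) 95% binomial intervals. They cover counting error only and treat sites as independent, and sites are not replicate animals. Shared sites lay between the classes at 37.9% (36.8–38.9), and all sites at 28.5%. Introns took 50.3% of the cal. res.-held and 18.1% of the ctrl.-held sites, and intergenic sequence 31.6% and 11.8%. The median distance to a start was 9355 bp for the cal. res.-held sites and 157 bp for the ctrl.-held sites. With 12458 regions per list the promoter shares were 14.9% and 70.7%, and among the 150 and 107 sites of low q they were 10% and 70.1%.

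The promoter share of the ctrl.-held sites rested on ctrl. replicate 2. It was 57.1% without ctrl. replicate 1 and 25% without ctrl. replicate 2, and the cal. res.-held share was then 20.4% and 15.5%. The cal. res.-held share stayed below the ctrl.-held share in all 4 leave-one-out settings. Per library at equal list length, promoters took 30.6% and 43.3% of the ctrl. regions and 25% and 26.1% of the cal. res. regions, the highest share being that of ctrl. replicate 2. The groups did not overlap, with a difference of the means of -11.4 percentage points and an exact two-sided permutation p of 0.3333, the smallest that 2 libraries against 2 can give. With all regions of each list the shares were 29.5% and 43.3% against 31.6% and 29.8%, and the groups overlapped.

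Base composition differed between the classes, over all sites and within each position. The mean GC content of the summit windows was 48.1% at cal. res.-held, 54.3% at shared and 60.5% at ctrl.-held sites, with 3.5 and 13.9 CpG per window in the cal. res.-held and ctrl.-held classes. Within promoters it was 56.6% at cal. res.-held and 65.9% at ctrl.-held sites, and among distal sites 46.7% and 49.9%. Ctrl.-held sites were also wider, with a median of 581 bp against 378 bp, and shared sites were the widest at 865 bp.

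The full GRE, the element that binds a receptor pair directly, was more frequent in the cal. res.-held class. It was found in 50 of 469 cal. res.-held sites, 10.7% (8.02–13.8), and in 10 of 935 ctrl.-held sites, 1.07% (0.514–1.96), against 5.52% of shared sites. Part of this contrast goes with promoters, which rarely held the element, so distal sites, those outside promoters, were also taken alone. Among distal sites the shares were 11.1% (8.24–14.6) and 2.53% (1.10–4.93), against 4.02% of all distal sites. In lists of equal length they were 10.6% and 1.89%. The distal cal. res.-held share was 4.92% without ctrl. replicate 1 and 10.6% without ctrl. replicate 2, and the ctrl.-held share 2.36% and 2.15%. Without cal. res. replicate 1 the shares of the classes were 6.96% and 1.85%, and without cal. res. replicate 2 they were 7.09% and 2.33%. The order of the classes was thus the same whichever library was left out. The cal. res.-held share fell most without ctrl. replicate 1, and it also fell without either cal. res. library.

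Single half-sites differed less. They were present in 22.8% (19.1–26.9) of cal. res.-held and 11% (9.08–13.2) of ctrl.-held sites, and in 25.2% (21.1–29.8) and 19.3% (15.1–24.1) of the distal ones, where the intervals overlapped. The C/EBP motif, bound by liver factors such as CEBPB, was in 18.8% and 6.74% of the classes, and in 20% and 13.9% of the distal sites. The FOX motif showed no separation at distal sites, with 6.19% (4.04–9.0) and 7.59% (4.93–11.1). STAT matches were more frequent in distal ctrl.-held sites, at 13.0% (9.47–17.2) against 6.44% (4.25–9.29). Promoter motifs ran the other way over all sites, with the SP/KLF box in 8.10% of cal. res.-held and 37.6% of ctrl.-held sites and the ETS motif in 2.13% and 10.5%. Within promoters alone the SP/KLF box was in 27.7% (17.3–40.2) of 65 cal. res.-held and 52.8% (48.8–56.8) of 619 ctrl.-held sites. The ETS motif was in 7.69% (2.55–17) and 15.0% (12.3–18.1) of them, with overlapping intervals.

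Peaks of FOXO1, called on merged cal. res. libraries and so not measured in ctrl. livers, overlapped 13.0% (10.1–16.4) of the cal. res.-held and 6.20% (4.74–7.95) of the ctrl.-held sites. Both shares lay below the 48.9% of the shared sites and the 17.8% of all sites. Of these classes, the sites with a peak in every list were therefore most often under a FOXO1 peak. Taking 12458 regions per list gave 24.0%, 15.2% and 62.1%. In livers of night-fed mice given corticosterone (CORT, 2 libraries), 55.2% and 81.7% of the cal. res.-held sites had a GR peak, and 87.0% had one in either library. Of the ctrl.-held sites 73.9% and 76.9% had one, and 91.1% in either. These CORT lists were long, at 29473 and 39136 regions, and held peaks at 60.7% and 73.3% of all sites. Their library names were of the same series as that of ctrl. replicate 1, and the part of this series in the overlap was not tested.

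**Figure D2:**
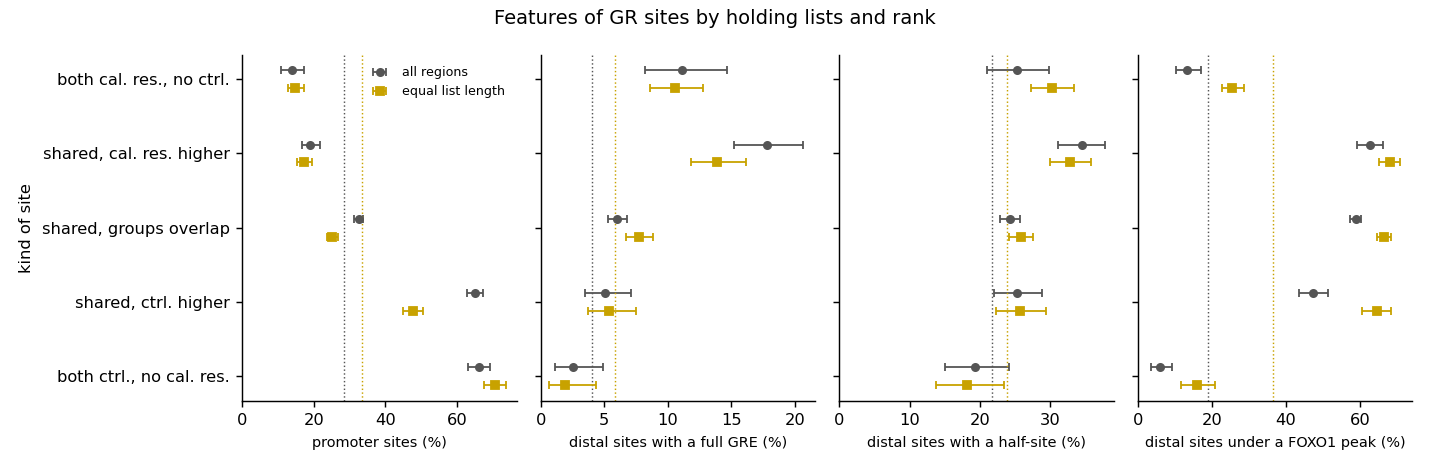
Share (%) of sites at promoters, and of distal sites with a full GRE, a GR half-site or a FOXO1 peak, for 5 kinds of site from cal. res.-held (top) to ctrl.-held (bottom), with all regions (grey circles) and at equal list length (yellow squares). Bars are exact 95% binomial intervals and dotted lines the share over all sites. Promoter share runs from 13.9% at the top to 66.2% at the bottom with all regions, while the FOXO1 share is highest in the 3 shared kinds.

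Ranks at shared sites agreed more closely within cal. res. than within ctrl. Across the 8613 shared sites the percentiles of the cal. res. replicates correlated with r = 0.781, those of the ctrl. replicates with r = 0.457, and those of libraries from different groups with r between 0.478 and 0.582. These are descriptions across sites of the same libraries, and the ctrl. replicates were no closer to each other than to the cal. res. lists. Summits of the cal. res. pair lay a median of 28 bp apart, those of the ctrl. pair 45 bp.

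Both cal. res. percentiles exceeded both ctrl. percentiles at 993 shared sites (11.5%), and the reverse held at 1812 (21.0%). With a gap of at least 10 percentile points these numbers were 247 and 942. On equal length they were 1263 (21.8%) and 1167 (20.1%) of 5792, and with percentiles taken among shared sites alone 1825 and 1801. With no minimum gap, the excess toward ctrl. was therefore present only with percentiles of whole lists of unequal length. A gap of at least 10 points gave 469 and 530 sites on equal length and 774 and 849 with percentiles among shared sites alone. At that gap the ctrl. count was the higher on each of these footings. The fold enrichment of each shared site was also tested with limma on the log2 scale after quantile normalisation. It gave 0 sites (0%) at a Benjamini-Hochberg adjusted p of 0.05, with a smallest adjusted p of 0.186. At an unadjusted p under 0.05 limma had 860 sites, 441 higher in cal. res. and 419 higher in ctrl. A site that limma did not call is not thereby shown to have equal binding in the groups. The adjusted count depended on the fit, as 14 sites passed with a replicate block and 184 with median centring. Without ctrl. replicate 1 it was 450, and without ctrl. replicate 2 it was 626, where the remaining ctrl. library is assumed to vary like the cal. res. group.

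The shared sites that ranked higher in one group repeated the features of the classes held by that group. Promoters made up 19% (16.6–21.6) of the 993 sites higher in cal. res. and 65.1% (62.9–67.3) of the 1812 higher in ctrl. A full GRE was present in 16.5% (14.3–19) and 2.04% (1.44–2.80), and a half-site in 32.1% (29.2–35.1) and 13.5% (11.9–15.1). FOXO1 peaks overlapped 59.7% (56.6–62.8) and 34.1% (31.9–36.3). At equal list length the contrasts were smaller, with promoters at 17.3% and 47.7%, full GREs at 12.8% and 3.08%, and FOXO1 peaks at 66.2% and 54.8%. Among distal shared sites the full GRE was in 17.8% (15.2–20.6) of those higher in cal. res., 6.03% (5.30–6.82) of those where the groups overlapped and 5.06% (3.49–7.07) of those higher in ctrl. Without ctrl. replicate 1 these shares were 8.96% and 6.43% for the sites higher in cal. res. and in ctrl., with overlapping intervals, and without ctrl. replicate 2 they were 13.5% and 3.70%. The size of the contrast at shared sites thus depended on ctrl. replicate 1. FOXO1 peaks covered 62.8%, 58.9% and 47.5% of the distal shared sites in the same order, and 68.0%, 66.6% and 64.6% at equal list length, where they hardly differed.

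The full GRE was concentrated at the summit in the cal. res.-held and shared kinds of distal site. No such rise was seen in the ctrl.-held kind, where few sites held it. Its middle lay within 50 bp of the summit in 125 of 804 distal shared sites that ranked higher in cal. res., 15.5% (13.1–18.2), and in 40 of 404 distal cal. res.-held sites, 9.90% (7.17–13.2). The share was 4.16% (3.56–4.84) where the groups overlapped, 3.64% (2.32–5.41) where ctrl. ranked higher and 1.27% (0.346–3.21) of the 316 distal ctrl.-held sites. In the highest bin of 25 bp the element was in 5.97% of the distal shared sites higher in cal. res., against a mean of 0.373% in bins far from the summit. In the distal ctrl.-held sites each bin within 50 bp held it in 0.316%, which is 1 site of 316, and the far bins in a mean of 0.277%. No rise at the summit was seen in these small counts.

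**Figure D3:**
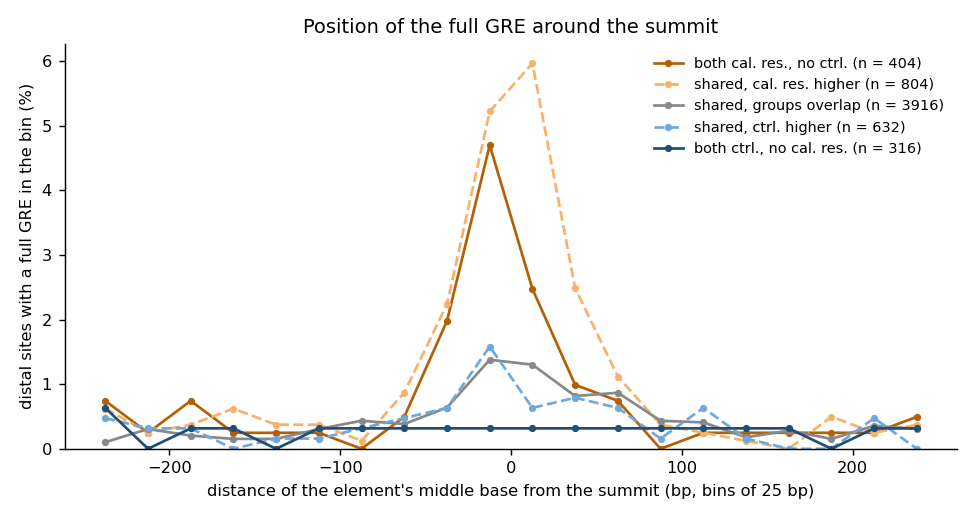
Share of distal sites (%, vertical axis) with a full GRE in each bin of 25 bp by distance from the summit (bp, horizontal axis), for 5 kinds of site drawn as lines. The lines for shared sites higher in cal. res. and for cal. res.-held sites rise at the summit, to 5.97% and 4.70%, and the line for ctrl.-held sites stays at or below 0.633%.

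The same feature followed rank inside every list. In lists of equal length, the 10% of regions with the highest fold enrichment held a full GRE in 13.6% and 17.5% of the ctrl. regions and in 20.2% and 21.9% of the cal. res. regions. In the 10% with the lowest it was 1.43% and 1.68% against 1.87% and 2.18%. Promoters showed the opposite order, with 17.9%, 23.2%, 14.1% and 14.1% of the highest 10% and 39.2%, 50%, 42.5% and 44.9% of the lowest. FOXO1 peaks lay over 81.3% to 88.5% of the highest 10% and 16.9% to 20.8% of the lowest in the 4 lists. Both cal. res. lists thus stood above both ctrl. lists for the element in the highest 10%, on top of a gradient that all 4 lists shared.

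**Figure D4:**
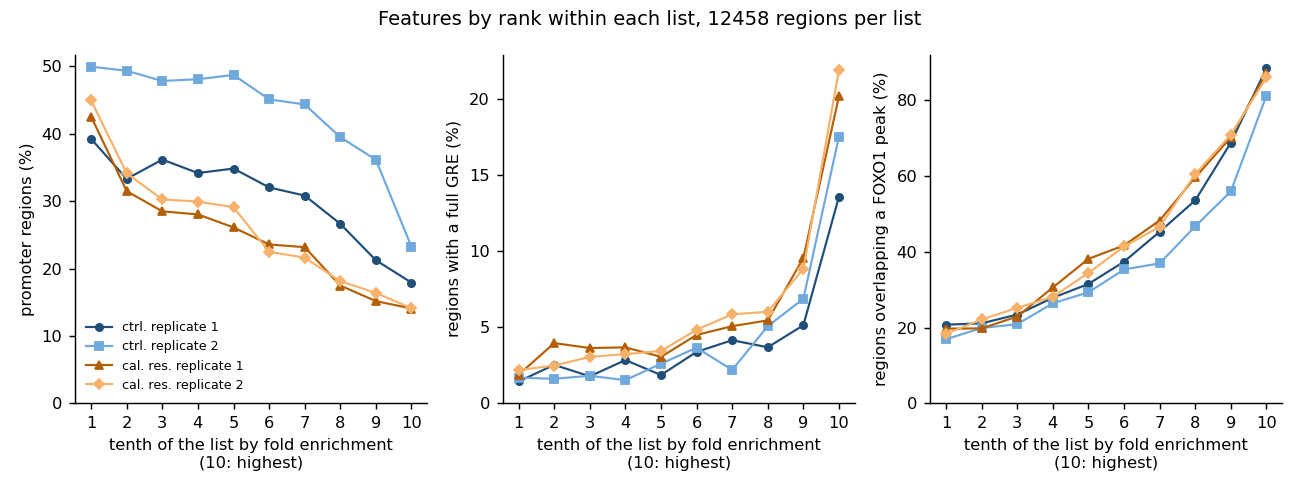
Shares of regions (%) at promoters, with a full GRE and under a FOXO1 peak in 10 equal bins of a list by fold enrichment (1 lowest, 10 highest), 12458 regions per list, 1 line per library. In the highest bin the full GRE lies at 20.2% and 21.9% in cal. res. and at 13.6% and 17.5% in ctrl.

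Over whole lists of equal length the full GRE was in 4.05% and 4.43% of the ctrl. regions and 6.09% and 6.18% of the cal. res. regions. The half-site was in 19.1% and 17.9% of ctrl. regions and 22.9% and 22.5% of cal. res. regions, and FOXO1 peaks in 41.9% and 36.9% against 43.9% and 43.4%. The SP/KLF box ran lower in cal. res., at 16.9% and 16.8% against 19.4% and 28.1%. STAT matches overlapped between the groups, with 7.19% and 9.39% in ctrl. and 9.66% and 7.55% in cal. res. In 18 of the 28 shares compared (64.3%) the groups did not overlap, each with an exact permutation p of 0.3333, and these shares are not independent of each other. Restricted to distal regions, the full GRE was in 5.11% and 6.68% of ctrl. and 7.12% and 7.29% of cal. res. regions. The cal. res. values were close together, and ctrl. replicate 2 lay nearer to them than ctrl. replicate 1 did.

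Single sites were then taken by rank: in each class the 10 sites whose lower percentile was greatest, each with the protein-coding gene of the nearest start. They were chosen by the values given here, so these are descriptions with no test. The leading cal. res.-held site (chr7:25884228-25884629) lay 13.2 kb upstream of Cyp2b10, a drug-metabolising cytochrome P450, at percentiles 90.1 and 89.6 with fold enrichments of 14.3 and 11.4. It is the site of the repeated half-sites printed above, under a FOXO1 peak and with a peak in both CORT lists. The site 17.3 kb upstream of Rab7, a late endosome GTPase, reached percentiles 87.9 and 94.5, and that 31.1 kb upstream of Klhl2 reached 87.2 and 94.2, the latter under a FOXO1 peak. The fourth site (chr3:88030553-88030920), 3.3 kb upstream of Hapln2 at the start of another transcript, had 93.7 and 84.6. Next to it in rank, the site 8.8 kb upstream of Lrrc20 had 86.8 and 84.2. The remaining 5, with Sntg1, Cttnbp2nl, 4930583I09Rik, Trarg1 and Med13l as nearest starts, had percentiles from 79.9 to 89.6. Those starts were 30.0 kb (Trarg1) to 136 kb (Med13l) away, and the 4930583I09Rik site lay inside Man2a1. All 10 belonged to the class at equal list length as well, which their choice by rank and by absence from whole ctrl. lists made likely. Of the 10, 6 held a full GRE, 4 lay under a FOXO1 peak, 10 had a peak in CORT replicate 2, and 1 was at a promoter.

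The ctrl.-held sites of this rank were of another kind. The leading one (chr4:155316191-155317483), in an intron of Prkcz, an atypical protein kinase C, had percentiles of 88.4 and 88.8. The promoter of Cisd2, an iron-sulfur protein of organelle membranes, had 91.5 and 88.2. A site 30.5 kb downstream of the start of Cebpb, which encodes a hepatocyte transcription factor, had 95.7 and 85.7 and lay under a FOXO1 peak. The site over Serpina1e (chr12:103943881-103950446) had 93.8 and 84.7, but it is uncertain, since near-identical Serpina1 copies share reads and reads with several matches were discarded. In an intron of Fgfr2 with Acadsb as nearest start, the percentiles were 83.5 and 91.8. The promoters of Zfp319, Wdr38 and Fnbp4, an exon of Fbxl22 and an intron of Hcn3 ranged from 77.7 to 84.6. Of these 10 sites 4 were promoters, 0 held a full GRE, 3 a half-site and 3 a FOXO1 peak. All 10 kept their class at equal list length, which their choice likewise made likely.

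Shared sites with the largest gaps in favour of cal. res. lay in introns in 7 of 10 cases. In Enpp2, which makes the lipid mediator lysophosphatidic acid, the percentiles were 21.4 and 12.1 in ctrl. and 83.1 and 80.6 in cal. res. In Cyp4a10, a fatty acid hydroxylase, they were 21.1 and 13.2 against 90 and 68.3, 1.1 kb from its start. In Ppargc1a, a coactivator of gluconeogenic and mitochondrial genes, they were 16.7 and 20.8 against 70.7 and 66.5. At each of these genes every cal. res. value lay above every ctrl. value by a wide margin. In Cyp27a1, a sterol hydroxylase of bile acid synthesis, the site had 41.4 and 42.8 in ctrl. and 92.7 and 86.1 in cal. res., with a full GRE and a FOXO1 peak. Papss2, which makes the sulfate donor, had 27.9 and 28.5 against 75.2 and 78.5. The sites with Ppp1r11, Hs6st1, Ppp2r3a, Zfp36l2 and Nfib as nearest starts ranged from 0.0963 to 39.9 in ctrl. and from 56.2 to 88.9 in cal. res. The Zfp36l2 start was 71.3 kb away and the Nfib start 125 kb. Of the 10, 6 lay under a FOXO1 peak, 7 held a half-site and 3 a full GRE. At equal list length ctrl. replicate 1 no longer held any of these 10, and the other 3 lists still did.

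Shared sites with the largest gaps in favour of ctrl. were promoters in 8 of 10 cases. At Wdr78 the percentiles were 88.0 and 88.3 in ctrl. and 4.71 and 2.13 in cal. res. At Ints7, a subunit of the Integrator complex, they were 81.0 and 75.0 against 3.90 and 1.47. At Slc20a1, a phosphate transporter, they were 92.2 and 84.8 against 14.0 and 15.6. At Hist2h2ac, a histone gene in a cluster of similar copies, they were 87.4 and 64.1 against 0.264 and 1.92. The ctrl. values were thus in the upper part of their lists and the cal. res. values near the bottom. The site in the Zfp771 exon near Dctpp1 had 84.0 and 86.8 against 6.32 and 7.54. Near Fam181a, Scaf8, Tent4a, Smc6 and Hp1bp3 the values ran from 70.8 to 94.0 in ctrl. and from 1.16 to 20.1 in cal. res. The Fam181a site lay inside Asb2, 10.7 kb from the Fam181a start. Of these 10 sites 0 held a half-site or a full GRE, and 3 lay under a FOXO1 peak. At equal list length neither cal. res. list held any of these 10, and both ctrl. lists still did.

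**Figure D5:**
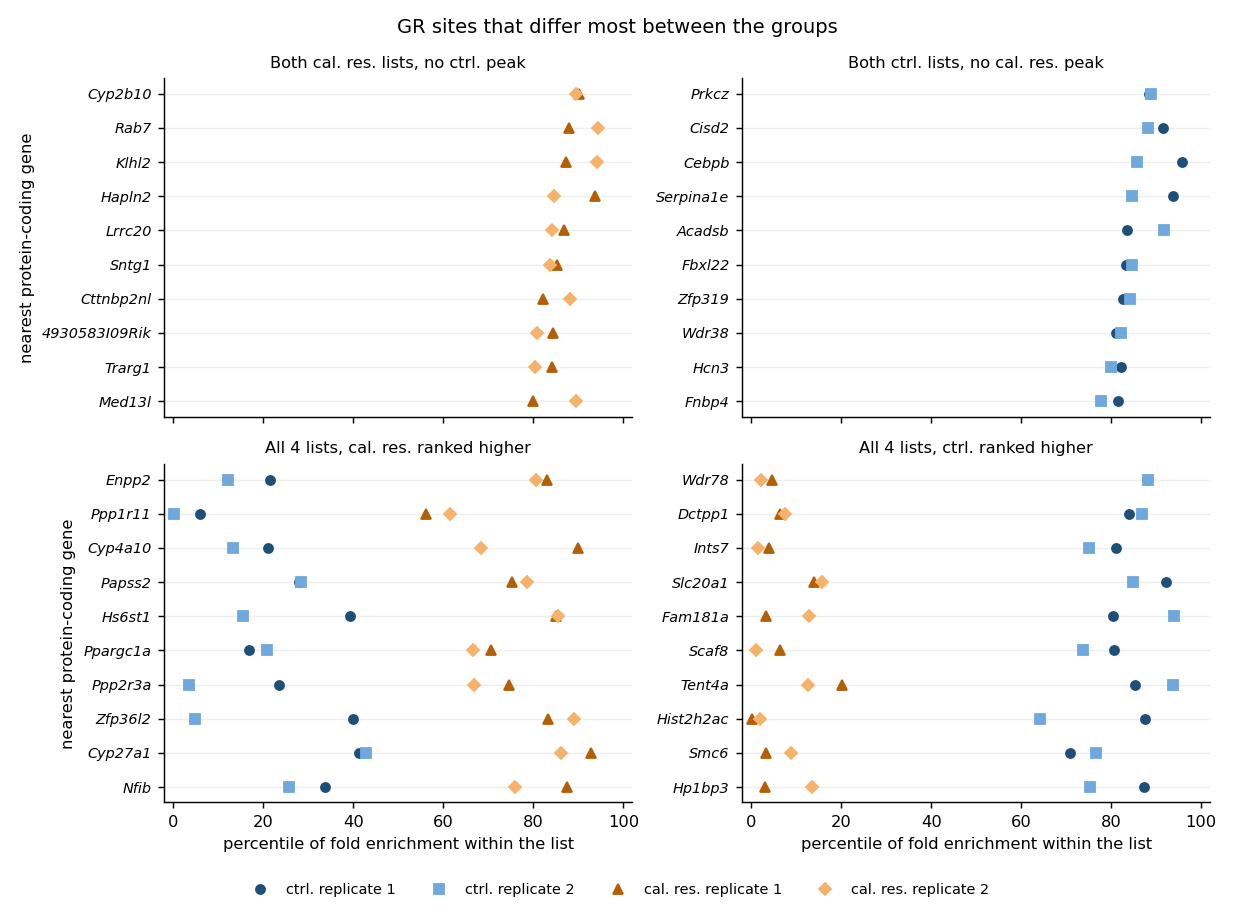
Percentile of fold enrichment within each list (horizontal axis, 100 highest) at the 10 leading sites of 4 kinds, 1 row per site named by its nearest protein-coding gene, 1 marker per library. Cal. res.-held sites show 2 markers between 79.9 and 94.5, and in the shared panels the markers of the groups lie apart, from Enpp2 (12.1 to 83.1) to Wdr78 (2.13 to 88.3). Sites were chosen by these values.

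Genes near the class sites were counted within 50 kb of the gene start. Of 21911 protein-coding genes, 622 (2.84%) had a cal. res.-held site and 2236 (10.2%) a ctrl.-held site, or 4.04% and 14.5% of the 15403 genes with any site. At equal list length the shares of all protein-coding genes were 6.24% and 10.2%, so more genes lay near ctrl.-held than near cal. res.-held sites on both footings. Lists of liver genes, 360 distinct genes in all, held 36 (10%) and 62 (17.2%) such genes, and 65 and 47 at equal list length, so the order of the classes depended on the length. Liver genes have more sites of every kind than most genes, and no list was tested against others.

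Lists of fatty acid oxidation and cytochrome P450 genes had more cal. res.-held than ctrl.-held members within 50 kb on both footings. Fatty acid oxidation and ketogenesis had 5 and 3 of 25 genes, and 9 and 3 at equal length. The 5 were Acot1, Cyp4a10, Cyp4a14, Ehhadh and Pdk4, and the 3 included Acadvl and Ppara. Cytochrome P450 genes numbered 4 and 1 of 25, and 8 and 1 at equal length, the 4 being Cyp2b10, Cyp2c37, Cyp4a10 and Cyp4a14 and the 1 Cyp3a25. The order depended on the window, since within 100 kb with whole lists the fatty acid list turned to 5 and 7 and the P450 list had 6 and 5. Cyp4a10 and Cyp4a14, which count in both lists, share 1 site, at the Cyp4a10 start (percentiles 45.1 and 17.4). Acot1, an acyl-CoA thioesterase, had a cal. res.-held site at its start (chr12:84009192-84009812, 49.4 and 74.9) and another 10 kb upstream (43.0 and 64.0). The neighbouring Acot4 and the overlapping Gm49366 had 3 such sites each, the most of any gene, and Acot genes form a cluster of similar copies. A further 3 genes, Eif4ebp2, Lrrc20 and Nodal, are neighbours on chromosome 10 and share their 2 sites.

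Lists of fat synthesis, protein synthesis and autophagy had more ctrl.-held members with whole lists, as protein-coding genes in general did. Lipogenesis had 3 cal. res.-held and 8 ctrl.-held (40%) of 20 genes, and 4 and 5 at equal length. Srebf1, the regulator of lipogenic genes, had ctrl.-held sites 24.3 kb downstream and 0.2 kb upstream of its start, at percentiles up to 51.6. Elovl6 and Gpam appeared under both classes, by different sites. Ribosomal protein genes had 1 and 7 (28%) of 25, and 0 and 3 at equal length, among them the promoters of Rps9 (21.2 and 20.8) and Rps15 (52.4 and 61.1). Autophagy genes had 1 and 5 (20%) of 25, near the 14.5% of all genes with any site, and 0 and 3 at equal length, with Ulk1, the kinase that starts autophagosome formation, at its own start (35.6 and 48.7).

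Insulin and FOXO signalling turned with the footing, at 3 and 4 of 25 genes with whole lists and 7 and 1 at equal length. With whole lists its cal. res.-held members were Foxo3, Igfbp1 and Pik3r1, and its ctrl.-held members Akt1, Bcl6, Foxo4 and Irs1. The site in the Foxo3 intron (chr10:42248267-42248639) had percentiles 76.2 and 55.8, and that in the Irs1 intron 71.6 and 32.3. Gluconeogenesis also turned, from 0 and 3 of 20 to 5 and 4, as did classical glucocorticoid targets, from 2 and 4 of 25 to 8 and 4, and hepatocyte nuclear factors, from 2 and 6 of 20 to 5 and 1. No direction can be given for these lists.

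The other lists had small counts, beside 2.84% and 10.2% of all protein-coding genes and 4.04% and 14.5% of those with any site. With whole lists, cal. res.-held and ctrl.-held members numbered 3 and 4 of 25 in amino acid catabolism, 1 and 2 of 8 in the urea cycle, 3 and 3 of 23 in growth hormone and STAT signalling, 2 and 4 of 23 in the circadian clock and 1 and 3 of 18 in bile acid synthesis. They numbered 2 and 1 of 20 in cholesterol synthesis, 3 and 5 of 23 in the acute phase response and 1 and 2 of 25 in oxidative phosphorylation. At equal list length the order turned in amino acid catabolism (5 and 4), bile acid synthesis (3 and 2) and cholesterol synthesis (3 and 5). Growth hormone and STAT signalling had 3 and 0. The urea cycle and the circadian clock kept their order, each with 2 and 3. The acute phase response had 1 and 1, and oxidative phosphorylation 4 and 4. Cal. res.-held sites with both percentiles above 50 lay near Tdo2, which degrades tryptophan (66.4 and 55.1), Apoa1, the main protein of HDL (67.1 and 68.5), Fdft1, the squalene synthase (63.6 and 64.0), and Cox4i1, a subunit of cytochrome c oxidase (68.9 and 64.0). Ctrl.-held sites with both above 50 included 1 near Foxa3, a forkhead factor of hepatocytes (63.5 and 55.0), and 1 near Rpl22 (80.2 and 70.1).

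In 30 genes known for glucocorticoid or feeding control, the leading site of a gene was its shared site of highest mean percentile. It was thus shared by choice, and not always high, as at Gadd45g with 47.8 and 48.7 in ctrl. and 23.7 and 23.6 in cal. res. Within 50 kb of the starts of the 30 genes 292 distinct sites were found. Of these, 111 were shared, 8 cal. res.-held, 4 ctrl.-held and 92 under a FOXO1 peak, and Sgk1 was the gene without any site. Of the 111, 18 (16.2%) ranked higher in both cal. res. lists and 19 (17.1%) in both ctrl. lists, against 11.5% and 21.0% of all shared sites. The counts are small, and the sites described next are single sites that were not called. Fkbp5, a chaperone of GR itself and its classical target, had its leading site 1.1 kb upstream (chr17:28517437-28519841) at percentile 100 in all 4 lists, with fold enrichments of 124, 72.1, 183 and 130. The leading site of Per1 (chr11:69096263-69097948), a clock gene, ranked from 99.9 to 100. At Tat, which degrades tyrosine, the leading site had 99.8 and 95.9 in ctrl. and 99.8 and 99.8 in cal. res. These sites stood near the top of every list.

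Weaker sites at the same genes had other ranks, and some stood higher in cal. res. In Bcl2l1, an inhibitor of apoptosis, an intronic shared site (chr2:152785353-152786411) had 67.1 and 45.5 in ctrl. and 92.4 and 93.6 in cal. res., and a cal. res.-held site in the gene had 60.4 and 70.1. At the start of Igf1, the growth hormone target, a shared site (chr10:87857432-87857922) had 24.2 and 3.62 against 73.7 and 41.8. A site 42.2 kb upstream of Pck1, the rate-limiting enzyme of gluconeogenesis, had 52.1 and 36.0 against 75.2 and 77.1. The Pck1 site 28.6 kb upstream, at 99.0 to 99.5 in all 4 lists, did not separate the groups. Upstream of Socs2, a feedback inhibitor of growth hormone signalling, a site had 2.18 and 7.39 against 27.5 and 68.7. Klf15, a regulator of amino acid breakdown, had a site 11.6 kb upstream with 84.4 and 79.8 against 94.8 and 92.4.

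Other sites ranked higher in ctrl. Beside the start of Bhlhe41, a clock repressor, a shared site (chr6:145866146-145867000) had 92.5 and 73.7 in ctrl. and 22.9 and 36.0 in cal. res. In Nr3c1, the gene of GR, the shared site had 82.9 and 87.6 against 30.1 and 24.7. A site 21.5 kb from the start of Angptl4, a lipase inhibitor, had 90.8 and 46.7 against 26.8 and 14.1, while the leading Angptl4 site had 99.3 to 99.9 in all 4 lists. Near Fgf21, a fasting hormone, a site 47.5 kb from the start had 98.1 and 95.4 against 78.0 and 80.5. In Tsc22d3, which encodes the glucocorticoid-induced leucine zipper, an intronic site (chrX:140598932-140599804) was ctrl.-held at 69.3 and 64.1. The cal. res.-held sites at these genes lay near Bcl2l1, Cry1, Gadd45g, Igf1, Igfbp1, Lpin1, Pdk4 and Socs2, and the ctrl.-held ones near Bcl6, Bhlhe41, Cish and Tsc22d3. In Cry1, a clock repressor, the cal. res.-held site (chr10:85161810-85162203) had percentiles 56.9 and 43.1, and the one 10.1 kb upstream of Igfbp1, which binds insulin-like growth factors, had 60.4 and 49.5. The groups did not overlap at any of the shared sites named as higher in one group, and none was called by limma. In simulation that fit recovered 0% of log2 changes of 1 or 2.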

How the data were processed

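GR ChIP-seq peak lists of 2 ctrl. and 2 cal. res. liver libraries were analysed, with the 2 CORT lists and 1 FOXO1 list from merged cal. res. libraries for overlap. Samples were grouped by their titles. Per the study's methods, the authors placed reads on mm10 by BWA, used Picard and Bamtools to drop duplicate reads and reads with several matches, called peaks per library with MACS2 in paired-end mode at q of 0.1 and removed blacklisted regions with bedtools. The FOXO1 list was called at q of 1e-05. Whether an input control was used in peak calling is not given in the sources used here. The deposited fold enrichment is a ratio scaled within a library, and the deposited −log10 p-values and −log10 q-values come from the caller. Read counts, and so the depth, were not analysed here.

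Rows with the same start and end were reduced to 1 region, and regions sharing at least 1 bp were merged into sites. Genes came from GENCODE M21 (basic set) and sequence from RefSeq GRCm38. Shares carry exact 95% intervals, which cover counting error only. Shares per library were compared by exact permutation tests, and the log2 of the fold enrichment at shared sites by limma with trend. The site, rank and motif functions and the limma fit were tested on simulated data. There limma recovered 0% of log2 changes of 1 or 2 and 57% of changes of 3.

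The members, gene lists, motifs and rules were chosen with earlier results of these data known. Named sites were the 10 of each class with the highest lower percentile, the 10 shared sites per direction with the largest gap, up to 5 genes per class with the most sites, and the list genes with such a site. Sequences were taken from the first 3 sites per class and the first per direction outside untranslated regions, of which 1 sequence and the values at some genes are not reported here. Alternatives changed the q, fold or overlap minimum, list length, promoter, gene and motif windows, scaling, replicate block and libraries. Whether replicate numbers pair the samples was checked by the correlation of same-numbered deviations across the 8613 shared sites (r = -0.103), and with 2 pairs and no label of pairing they were taken to share only a number. The tools were limma 3.58.1 in R 4.3.3, and SciPy 1.17.1, matplotlib 3.10.9, pandas 2.3.3 and NumPy 2.4.6 in Python 3.11.15.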

Additional observations from a re-analysis of the deposited data

How the results depend on the processing

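The number of sites in a class followed the lists compared, while its promoter share kept its order between classes under the alternatives run. Of 130 alternative values 85 were labelled the same and 45 moved. For counts and class shares, the same meant near the main value. For differences per library it meant only that the sign was kept, and none of those reversed. The order of the class counts did turn, from 469 cal. res.-held and 935 ctrl.-held sites to 1056 and 900 at equal list length. Depth was unknown, and an absent peak means only that none was called.

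With q of at most 1e-05 there were 417 ctrl.-held and 4203 shared sites, and with a fold enrichment of at least 5 there were 428 and 3502. At equal list length 1056 sites were cal. res.-held, 1167 shared sites ranked higher in ctrl., and the ctrl.-held promoter share was 70.7%. It was 70.3% with q of at most 0.01. With a peak in either library of a group taken as enough, there were 3138 cal. res.-held, 15137 ctrl.-held and 21512 shared sites. A gap of at least 10 points left 247 and 942 shared sites higher in cal. res. and in ctrl. A 3 kb promoter window gave promoter shares of 25.8% and 72.2%. Members of the gene lists with a cal. res.-held site numbered 17 within 10 kb and 65 at equal list length, and those with a ctrl.-held site 25 within 10 kb. Median centring gave 184 limma calls.

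Some alternatives were chosen after seeing the data. Percentiles among shared sites alone put 1825 of them higher in cal. res. and 1801 higher in ctrl. With q of at most 1e-05 in the holding lists and absence judged on all regions, 150 cal. res.-held and 107 ctrl.-held sites remained, with promoter shares of 10% and 70.1%. The crossed pairing gave 9 limma calls.

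Leaving out each library in turn gave 534–6358 cal. res.-held sites (highest without ctrl. replicate 1), 1325–14802 ctrl.-held sites (highest without ctrl. replicate 2) and 8772–14278 shared sites. Shared sites higher in cal. res. numbered 1424–4977 and those higher in ctrl. 2185–9456. The promoter shares ranged over 13.0–20.4% for cal. res.-held and 25–64.4% for ctrl.-held sites, the lowest being that without ctrl. replicate 2. The limma calls ranged over 0–626. The difference in promoter share per library kept its sign throughout, from -17.7 to -5.04 points. The cause of these moves was not tested.

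A replicate block gave 14 limma calls against 0 without it. The paired difference in promoter share was -11.4 points, which equals the difference without the block by arithmetic and says nothing about pairing. With 2 pairs whether each sample was closest to its own number could not be judged.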
